A study of Mus musculus with 4 samples.

Results

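Keratin genes were examined as an epithelial contrast in a STAT3 chromatin immunoprecipitation and sequencing (ChIP-seq) study of the injured mouse spinal cord. The members are the protein-coding genes whose symbol is Krt followed by a number and at most 1 letter, in the RefSeq annotation of GRCm38.p6. There were 53 such genes among 21887 protein-coding genes, 27 on chromosome 11 and 26 on chromosome 15. A further matching gene, Krt74, is annotated as a transcribed pseudogene and was left out. The members were chosen by name, with earlier results of these data known, so their peaks are described here without a test.

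The SCI group were C57BL/6 mice with a laminectomy and a moderate contusion of 60 kdyn at thoracic level 9, and the sham group were C57BL/6 mice with the laminectomy at that level alone. In both groups cells were dissociated from the cord at the epicentre 7 days after surgery, without a sort for a cell type in the protocols, and the sources used here give no age for the mice. Each group had 1 STAT3 ChIP library from pooled tissue of 3 mice, so no difference between SCI and sham below has a replicate check. The input libraries of both groups were not analysed here.

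Keratins are the intermediate filament proteins of epithelial cells. A type I (acidic) and a type II (basic) keratin pair to form the filament, and in the mouse the type I genes lie together on chromosome 11 and the type II genes on chromosome 15, beside the type I gene Krt18. Below, members are divided by chromosome, so that Krt18 is counted with the type II genes. Different pairs mark simple epithelia, the basal and upper layers of the epidermis, wounded skin and the parts of the hair follicle. In human keratinocytes STAT3 is known to take part in the induction of KRT17. Neurons and astrocytes build their filaments from other genes of the superfamily.

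The deposited lists held 36249 SCI peaks and 88765 sham peaks on chromosomes 1 to 19, X and Y. Each peak carries the authors' own score, which ranks peaks within a list, and "top 10%" below means that this share of the list scored as high or higher. Reads per library are not part of the lists, so the depth is unknown. Intervals are 95% exact intervals (Clopper-Pearson for shares, Poisson for counts of peaks) and cover counting error only, and neighbouring keratin genes are not independent of each other.

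The promoter windows of 36 keratin genes, 37 windows in all, were matched in the RefSeq promoter table of GRCm38.p6, which gives 250 bases before and 50 bases after a gene's start. No SCI peak and no sham peak overlapped any of the 37. That is no result about keratins, since only 0.621% of 21263 such windows of protein-coding genes were overlapped by an SCI peak and 1.53% by a sham peak. The closest peak was a sham peak 82 bp from the window of Krt42, with the lowest score of the list, 5. The nearest SCI peak lay 1457 bp from the window of Krt33b.

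STAT proteins bind palindromes of the form TTCNNNGAA, and some also a longer form with 1 more base between TTC and GAA. Each form reads the same on both strands, so 1 search covered both, and copies of the 2 forms may overlap. Of the 37 keratin windows, 4 held the shorter form (Krt24, Krt25, Krt31 and Krt42), 10.8% against 7.69% of the windows of protein-coding genes. The longer form was held by 3 (Krt25, Krt71 and Krt73), 8.11% against 6.35%. The 6 windows with either form are 16.2% of the keratin windows, against 13.4% of the windows of protein-coding genes. A match is a description of letters, not a site. Of these windows, 3 are shown 5′ to 3′ on the gene's strand with the matches in capitals, Krt42 because a peak came closest to it, Krt25 because it held both forms, and Krt73 as a type II gene without a peak in either list.
Krt42, chr11:100269902-100270201, minus strand: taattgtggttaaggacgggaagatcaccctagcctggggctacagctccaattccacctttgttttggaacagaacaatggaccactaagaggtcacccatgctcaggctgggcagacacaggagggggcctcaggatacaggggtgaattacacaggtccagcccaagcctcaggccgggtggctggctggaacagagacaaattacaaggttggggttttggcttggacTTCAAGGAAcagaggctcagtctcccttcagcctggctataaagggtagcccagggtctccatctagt
Krt25, chr11:99322902-99323201, minus strand: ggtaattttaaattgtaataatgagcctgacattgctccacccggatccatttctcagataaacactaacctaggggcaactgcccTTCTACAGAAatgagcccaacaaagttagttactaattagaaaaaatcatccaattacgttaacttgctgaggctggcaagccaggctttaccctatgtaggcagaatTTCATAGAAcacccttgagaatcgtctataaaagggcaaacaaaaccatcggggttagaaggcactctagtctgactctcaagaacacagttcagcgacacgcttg
Krt73, chr15:101802311-101802610, minus strand: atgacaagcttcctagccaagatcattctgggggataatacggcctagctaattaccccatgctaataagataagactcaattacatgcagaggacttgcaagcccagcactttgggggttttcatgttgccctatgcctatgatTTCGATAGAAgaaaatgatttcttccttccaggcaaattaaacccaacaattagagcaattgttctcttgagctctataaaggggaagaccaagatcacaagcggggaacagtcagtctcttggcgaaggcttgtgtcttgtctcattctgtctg
These windows also show a TATA box near the gene's start. The letters TATAAA stood on the gene's strand in 17 of the 37 keratin windows (45.9%), against 8.26% of the windows of protein-coding genes. On either strand the shares were 51.4% and 12.6%. The TATAAA search was chosen after the sequences were seen. The first base lay at a median of 29 bases before the gene's start in the keratin windows. By cluster, 13 of 21 windows on chromosome 11 and 4 of 16 on chromosome 15 had it on the gene's strand.

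Few keratin genes had a STAT3 peak in either list, and the number was the same in both. A peak was assigned to each gene that held its centre or lay within 5 kb of it. By this rule 11 of 53 keratin genes had an SCI peak, 20.8% (10.8 to 34.1%), beside 43.9% of all protein-coding genes. In sham 11 of 53 also had a peak, 20.8% (10.8 to 34.1%), beside 66.7% of all protein-coding genes. Keratin genes are short, with a median of 7.07 kb and a range from 2.81 kb (Krt16) to 50.6 kb (Krt78), so these shares have to be read beside genes of like length.

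With the 5 kb rule, the interval of the SCI share covered that of genes of like length, and the sham count was low. Across the length deciles in which keratins lie, 34.9% of 13078 other protein-coding genes had an SCI peak and 61.5% a sham peak. With each keratin gene given the share of its own decile, 14.5 of 53 would have an SCI peak (27.3%), and the interval of the observed 20.8% covers this. For sham the number would be 27.9 (52.6%), above the upper end of the interval of the observed share. The observed count was thus 0.76 of the like-length count in SCI and 0.39 of it in sham. The 2 ratios also stood apart within 10 kb, at 0.88 in SCI and 0.55 in sham. Within 1 kb of either gene end they were 0.64 and 0.28, on 2 genes in each list. Inside the gene they did not stand apart. With peaks inside the gene only, 3 genes against 6.71 had one in SCI and 7 against 14.1 in sham. Those are 0.45 and 0.50 of like length. When only the 36249 best-scoring sham peaks were kept, as many as SCI has, 5 keratin genes had a sham peak, against 15.6 from genes of like length, so the count was below that of like length in a list as short as that of SCI too.

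Both lists had a peak at 6 keratin genes, against 9.87 from like length and beside 37.3% of all protein-coding genes. An SCI peak alone was found at 5 genes, against 4.61 from like length, beside 6.51% of all. A sham peak alone was also found at 5 genes, against 17.996 from like length, beside 29.3% of all. The remaining 37 keratin genes had neither, 69.8% (55.7 to 81.7%), where like length gives 38.7% and all protein-coding genes 26.8%. Of these classes the lowest relative to like length was a sham peak alone, at 0.28 of the like-length count.

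**Figure D1:**
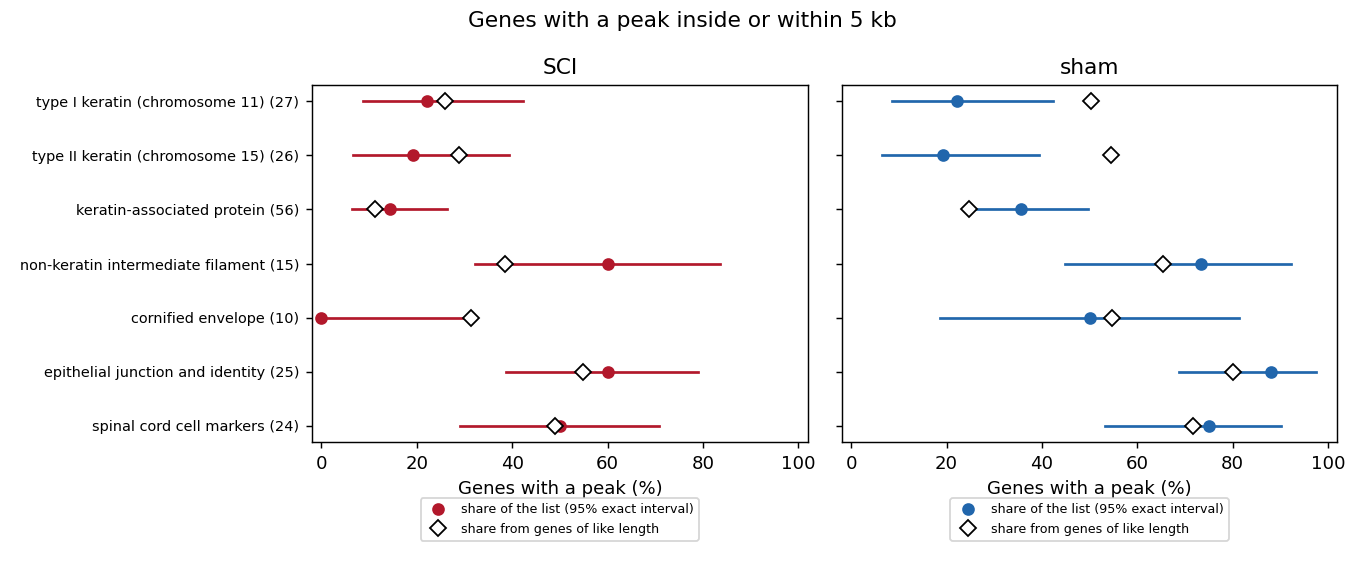
Share of genes with a peak inside or within 5 kb (x axis, percent) for keratins by type and 5 other gene lists, SCI on the left and sham on the right. Filled points are the lists with 95% exact intervals, open diamonds the share from genes of like length, and numbers in brackets the genes in each list. In sham both keratin types (22.2% and 19.2%) lie left of their diamonds (50.4% and 54.6%), outside the intervals.

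The 6 genes with peaks in both lists were Krt222, Krt33b, Krt34, Krt78, Krt79 and Krt18, and at none of them was the position the same. Krt222, the gene at the outer edge of the type I cluster, had 1 SCI peak 832 bp outside it (99231847 to 99232010 on chromosome 11, score 7.49, top 48.9%). It had 2 sham peaks inside it, of which the higher (99243693 to 99243882) scored 19.2, in the top 9.80%. The SCI peak also lies within 5 kb of Smarce1, a chromatin remodelling gene, so it is not the keratin's alone.

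Krt33b and Krt34 are neighbouring type I genes of the hair shaft. Krt33b had its SCI peak 1788 bp outside the gene (100031575 to 100031738, score 8.76, top 35.1%) and its sham peak inside it (100028310 to 100028499, score 7.00, top 62.7%). Krt34 had its SCI peak 296 bp outside the gene (score 7.00, top 55.1%) and its sham peak inside it at the lowest score, 5. These are middling to low ranks in both lists. The peaks of the 2 lists lay 3076 bp apart at Krt33b and 2877 bp apart at Krt34.

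On chromosome 15, Krt78, a type II keratin and the longest member, had the highest-ranked SCI peak of all keratin genes. It lay inside the gene at 101984890 to 101985053, scored 15.0 and stood within the top 8.99%. Of its 2 sham peaks the higher, inside the gene at 101982526 to 101982715, scored 12.3 (top 24.9%), 2175 bp from the SCI peak. Krt78 lies in a length decile in which 58.7% of genes had an SCI peak and 87.8% a sham peak, so a peak there is the usual case. Krt79, its neighbour, had an SCI peak inside it (101934061 to 101934224, score 9.46, top 29.7%) and a sham peak 3.23 kb outside it (score 6.86, top 64.5%), which also counts for Krt78.

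Krt18, the partner of Krt8 in simple epithelia, had the closest pair of peaks. Its SCI peak lay 3918 bp outside the gene (102035863 to 102036026, score 7.00, top 55.1%). A sham peak at 102036332 to 102036521 (score 14.5, top 17.97%) started 306 bp beyond it, and another sham peak lay on the other side of the gene (102024514 to 102024703, score 7.94). With centres within 1000 bp counted as the same position, this was the only pair at keratin genes. Krt8 itself had no peak, with the nearest at 11.7 kb in SCI and 14.1 kb in sham.

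An SCI peak alone was found at Krt27, Krt39, Krt16, Krt86 and Krt1. Krt39, a hair keratin, had the highest-ranked of these, 3578 bp outside the gene (99509300 to 99509463 on chromosome 11, score 11.3, top 19.9%). At Krt1, a keratin of the upper epidermis, the peak lay 2894 bp outside the gene (101853599 to 101853762 on chromosome 15, score 10.1, top 25.1%). Krt27, of the inner root sheath, held its peak inside the gene (chromosome 11, 99346495 to 99346658, score 8.67, top 36.3%). The other 2 ranked low. At Krt16, a keratin induced in wounded epidermis, the peak lay 1988 bp away and scored 5.83 (top 77.3%), and at Krt86, a type II hair keratin, it lay 2996 bp away and scored 5.32 (top 87.6%).

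A sham peak alone was found at Krt28, Krt23, Krt42, Krt2 and Krt4. Krt28, of the inner root sheath, held the highest-ranked sham peak at any keratin gene (chromosome 11, 99372248 to 99372437, score 24.3, top 5.31%). The other 4 were named after their values were seen. Krt4, a keratin of mucosal epithelia, had a peak 1.83 kb outside it with a score of 9.80 (top 37.1%). Krt2, of the upper epidermis, and Krt23 held peaks with scores of 6.43 and 5.85. The peak beside Krt42 had the lowest score.

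By site of expression, the groups of keratins are too small to be told apart by the number of genes with peaks. Basal epidermal keratins (Krt5, Krt14 and Krt15) had no peak in SCI and none in sham among 3 genes, where like length gives 0.71 and 1.39. Wound-inducible keratins (Krt6a, Krt6b, Krt16 and Krt17) had an SCI peak at 1 of 4 genes and a sham peak at 0 of 4 (like length 0.89 and 1.78). Simple epithelial keratins (Krt7, Krt8, Krt18, Krt19 and Krt20) had 1 of 5 in SCI and 1 of 5 in sham, both at Krt18 (like length 1.39 and 2.67). Suprabasal keratins had 1 of 5 in SCI and 1 of 5 in sham, at Krt1 and at Krt2 (like length 1.43 and 2.74).

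Among keratins of the hair shaft and nail the SCI count was the higher one, 4 of 15 genes in SCI against 2 of 15 in sham, where like length gives 3.74 in SCI and 7.36 in sham. Inner root sheath and companion layer keratins had 1 of 8 in SCI and 1 of 8 in sham (like length 2.32 and 4.48). Mucosal and corneal keratins had 1 of 5 in SCI and 2 of 5 in sham (like length 1.59 and 2.84), and the 8 remaining keratins 2 in SCI and 4 in sham (2.38 and 4.48). Krt5 and Krt14, the pair of the basal epidermis, lay 42.2 kb and 43.4 kb from the nearest SCI peak, and 103 kb and 5.28 kb from the nearest sham peak. Krt17 lay 5.32 kb from the nearest SCI peak and 9.35 kb from the nearest sham peak. In SCI, Krt18 at 3.92 kb was thus the member just inside the 5 kb limit and Krt77 at 5.05 kb the one just outside, and in sham they were Krt18 at 3.61 kb and Krt14 at 5.28 kb.

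No peak at a keratin gene was shared between the lists, where sharing means an overlap of 1 bp or more with a peak from the opposite condition. Of the 11 SCI peaks at keratin genes 0 were shared (0 to 28.5%), where 21.6% of the whole SCI list were. Of the 13 sham peaks at keratin genes 0 were shared (0 to 24.7%), where 8.84% of the whole sham list were. Both list values lie inside these intervals, so numbers this small show no departure from the rest of the list. The peaks at keratin genes had median scores of 8.67 in SCI and 7.00 in sham, beside 7.37 and 8.07 over the whole lists.

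Taken as 1 locus, the type II cluster on chromosome 15 was poor in sham peaks relative to all windows of its length, and the type I cluster on chromosome 11 was near their median. The type I locus ran from 99232761 to 100269951, 1037 kb with 27 keratin genes. It held 15 SCI peaks (8.40 to 24.7) and 34 sham peaks (23.5 to 47.5). Among 2463 windows of that length on chromosomes 1 to 19 and X, the median was 14 in SCI and 34 in sham, and the locus stood at percentile 56.2 in SCI and 49.4 in sham. The type I locus was thus near the middle of all windows in both lists. Among the 90 windows with at least 50% of its 65 protein-coding genes it stood lower, at percentile 27.2 in SCI and 17.2 in sham. Of the 112 windows of chromosome 11, it was at percentile 42.4 in SCI and 39.3 in sham.

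The type II locus, with Krt18, ran from 101348315 to 102032026 on chromosome 15, 684 kb with 26 keratin genes. It held 7 SCI peaks (2.81 to 14.4) and 7 sham peaks (2.81 to 14.4). The 3746 windows of that length had a median of 9 in SCI, with the middle 50% of windows from 7 to 12, and the locus stood at percentile 27.9. In sham their median was 22, with the middle 50% from 18 to 28, and the locus stood at percentile 1.84. As few sham peaks or fewer were found in 81 of the 3746 windows. The ratio to the mean window was 0.73 (0.29 to 1.496) in SCI and 0.30 (0.12 to 0.61) in sham.

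The balance of the lists differed in the same way. Sham peaks outnumbered SCI peaks 2.27 to 1 over the type I locus, near the window median of 2.46. Over the type II locus the ratio was 1, and 75 of 3738 windows with an SCI peak had a ratio as low or lower. The type II locus stood low in sham among gene-rich windows and on its own chromosome as well. Among the 413 windows with at least 50% of the locus' 27 protein-coding genes, it stood at percentile 11.99 in SCI and 1.09 in sham. Of the 145 windows of its own chromosome, it was at percentile 25.5 in SCI and 0.345 in sham. How much of the keratin clusters can be aligned uniquely was not tested, since no genome sequence was at hand, and near-identical neighbours such as Krt6a and Krt6b lie in the type II locus.

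**Figure D2:**
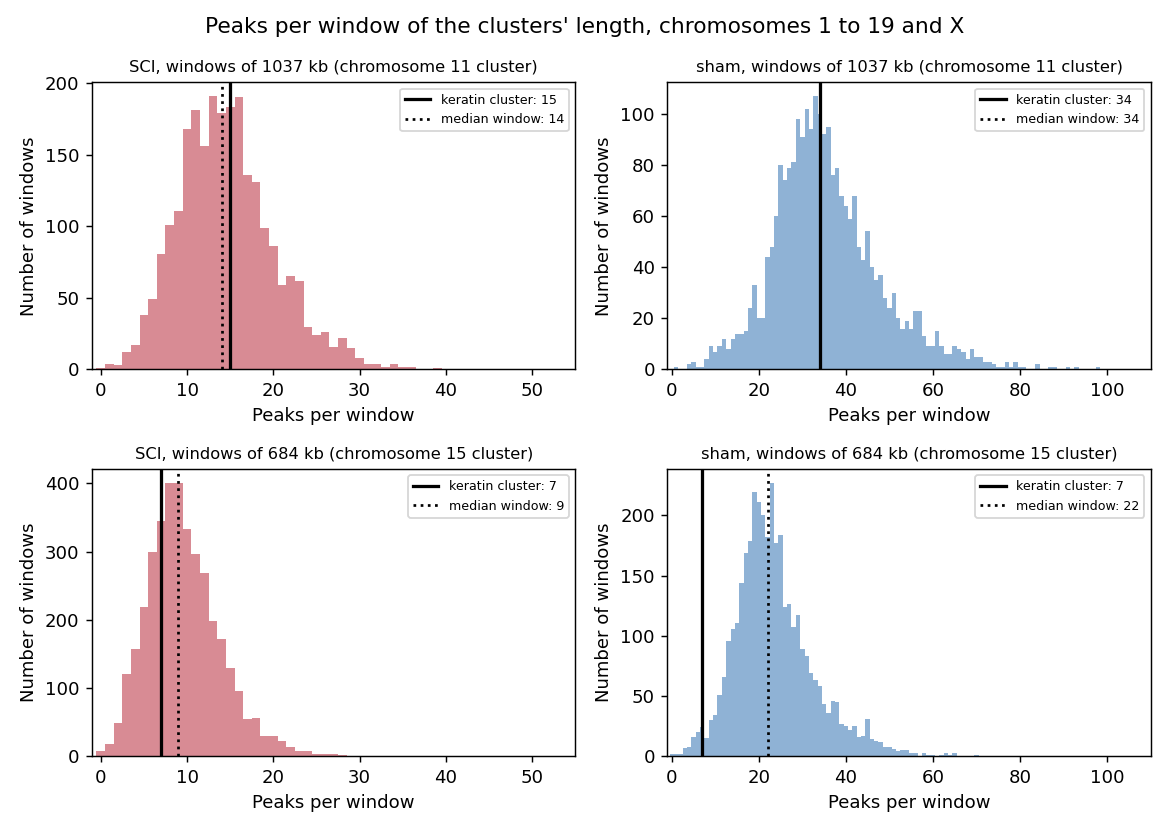
Number of windows (y axis) by peaks per window (x axis) for windows of the length of the type I locus (top) and of the type II locus (bottom), SCI on the left and sham on the right. Solid lines mark the keratin loci and dotted lines the window medians. The type II locus, with 7 sham peaks, lies at the low end of the sham windows, whose median is 22, while the other 3 panels show the loci within the bulk.

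The flank of the type II locus on the Krt18 side was rich in peaks in both lists. The 684 kb that follow the type II locus held 26 SCI peaks and 62 sham peaks, percentiles 99.7 and 99.8 of the windows. The 684 kb before it held 10 SCI peaks and 27 sham peaks, percentiles 58.3 and 71.2. Both flanks of the type I locus were also above the median window, with 23 SCI and 72 sham peaks before it and 27 SCI and 57 sham peaks after it. The type I locus thus had fewer peaks than either flank in both lists.

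Within the type II locus the peaks were uneven. SCI peaks were absent from 101470564 to 101664752, a stretch of 194 kb with 6 keratin genes (Krt86, Krt83, Krt84, Krt82, Krt90 and Krt75). Sham peaks were absent from 101596728 to 101815389, 219 kb with another 6 (Krt6b, Krt6a, Krt5, Krt71, Krt72 and Krt73). Neither list had a peak in the 150 kb from 101664917 to 101815389, which holds the wound-inducible Krt6a and Krt6b and the basal Krt5. From Krt80 to Krt75, sham had no peak at all, and Krt88 was the member farthest from a sham peak, at 143 kb. Of the peaks at type II keratin genes, 4 of 5 in SCI and 6 of 6 in sham were at genes from Krt2 to Krt18, and 1 of each lay beyond Krt18, outside the locus.

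**Figure D3:**
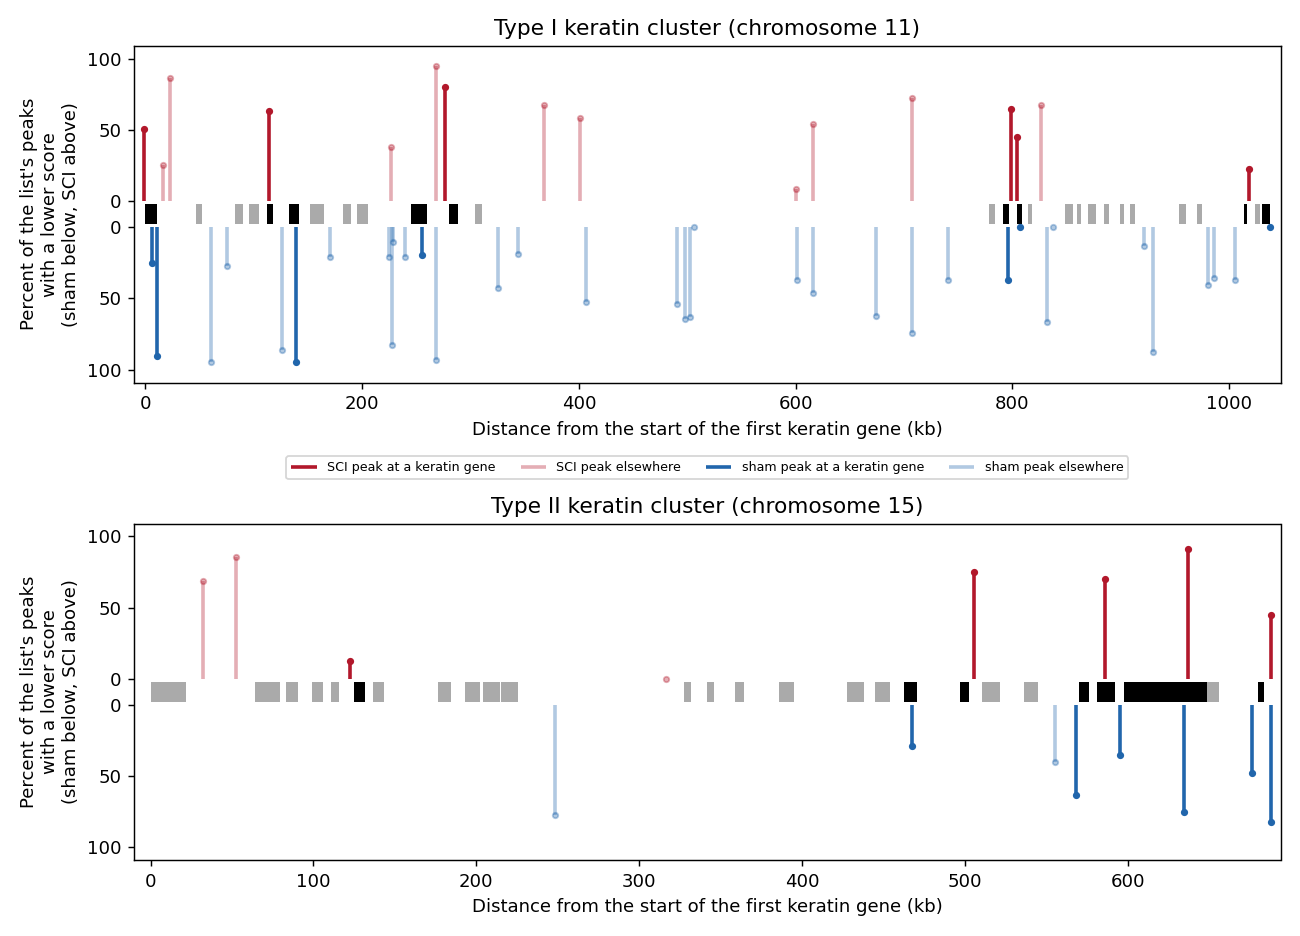
Peaks over the type I (top) and type II (bottom) keratin loci by distance from the start of the first keratin gene (x axis, kb). Lines rise to the percent of the list's peaks with a lower score, SCI above and sham below the genes. Boxes are keratin genes, black with a peak in either list and grey with none, and strong colours mark peaks at a keratin gene. In the type II locus 7 SCI and 7 sham peaks are seen within the gene span, with 1 more of each just outside it, and a stretch in the middle holds no peak of either list.

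Over the type I locus, sham peaks per Mb were fewer at the keratin genes than between them, with intervals that overlap. The keratin genes with 5 kb on either side cover 396 kb of the locus and held 5 SCI peaks, 12.6 per Mb (4.10 to 29.5), and 6 sham peaks, 15.2 per Mb (5.56 to 33.0). The other 641 kb held 10 SCI peaks, 15.6 per Mb (7.48 to 28.7), and 28 sham peaks, 43.6 per Mb (29.0 to 63.1). The mean over windows was 14.1 per Mb in SCI and 34.5 per Mb in sham, so the sham level near keratin genes was below the mean and its interval did not reach it. In the type II locus the 448 kb at keratin genes held 4 SCI peaks (8.92 per Mb) and 5 sham peaks (11.2 per Mb), and the other 235 kb 3 SCI and 2 sham peaks.

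The type I locus is split by a stretch of keratin-associated protein genes, which encode matrix proteins of the hair shaft. Between Krt40 and Krt33a lay 468 kb with 23 of these genes, 5 SCI peaks (10.7 per Mb) and 12 sham peaks (25.6 per Mb). All 3 positions shared by SCI and sham over the 2 keratin loci were in the type I locus and at no keratin gene. The strongest lay 8076 bp from Krt23, on its Krt39 side, with the SCI peak at 99501115 to 99501278 (score 18.1, top 5.02%) and the sham peak at 99501049 to 99501238 (score 22.2, top 6.82%), overlapping by 124 bp. The other 2 lay beside Krtap4-16, where the SCI peak ranked in the top 45.6% and the sham peak in the top 54.1%, and beside Krtap31-2, in the top 27.8% and 25.8%.

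The distance from a keratin gene to its nearest peak restates the peak positions above, so the genes are not separate results. Over all 53 genes the median was 18.4 kb in SCI and 14.1 kb in sham, beside 12.7 kb and 1.96 kb for other protein-coding genes pooled over the same length deciles. That pool was not weighted to the deciles of the keratins, so these distances are matched less closely than the counts. It holds more genes with a peak (34.9% in SCI, 61.5% in sham) than the like-length shares (27.3% and 52.6%). For type I genes the median was 21.5 kb in SCI and 8.44 kb in sham. For type II genes it was 15.6 kb in SCI and 39.9 kb in sham, so sham peaks, the more numerous ones genome-wide, were the farther ones there. The type II genes from Krt88 to Krt6a were all nearest to the same sham peak, at 101596538 to 101596727. The type II median was thus the larger one in sham and the smaller one in SCI.

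**Figure D4:**
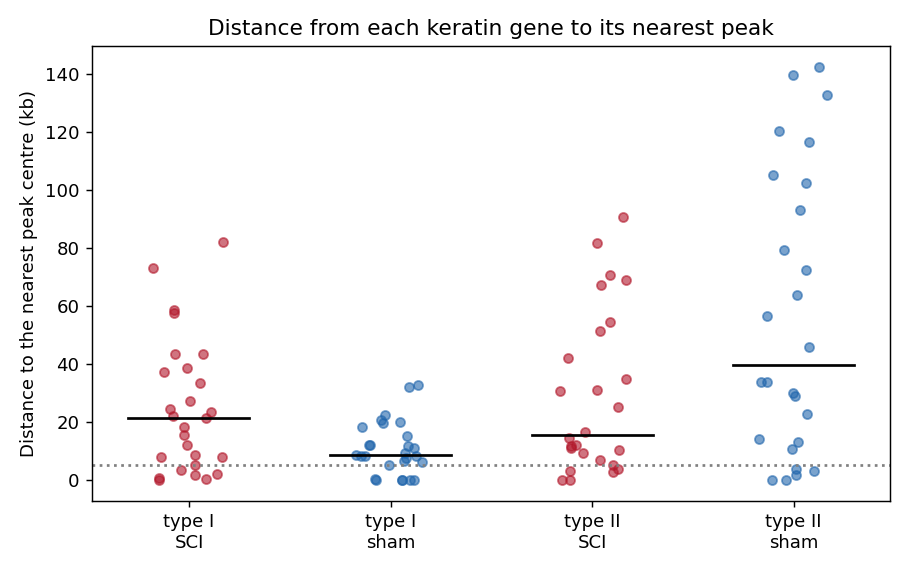
Distance from each keratin gene to its nearest peak centre (y axis, kb), by keratin type and list; points are genes, bars medians, and the dotted line the 5 kb limit. Type II genes reach 143 kb from a sham peak, and type I genes at most 32.7 kb.

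Other filament and epithelial gene lists had sham counts close to or above those of like length. Non-keratin intermediate filament genes had an SCI peak at 9 of 15 (like length 5.79) and a sham peak at 11 of 15 (9.81). Peaks in both lists were found at 7 genes (like length 4.65). They were Vim, of mesenchymal and glial cells, Nes, of neural progenitor cells, Bfsp1, Lmna, Lmnb1, Prph and Ina. These 7 were named after their values were seen. A peak in SCI alone was found at 2 genes (like length 1.14), Des, the muscle filament, at the lowest score, and Nefl, a neurofilament subunit, in the top 17.5%. A peak in sham alone was found at 4 genes (5.16), Synm, Bfsp2, Lmnb2 and the neurofilament subunit Nefh, whose best peak stood in the top 1.75%. These 4 were named after their values were seen. Gfap, the astrocyte filament, and Nefm had none in either. The Nes peaks ranked in the top 10.3% in SCI and 8.80% in sham.

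Epithelial junction and identity genes, such as the cadherin Cdh1 and the epidermal regulator Trp63, had an SCI peak at 15 of 25 (like length 13.7) and a sham peak at 22 of 25 (19.998). The desmosome gene Pkp3 was the 1 member with a peak in SCI alone (like length 1.49), at the lowest score, and 8 members had one in sham alone (7.79). Cornified envelope genes had an SCI peak at 0 of 10, where like length gives 3.13 (31.3%), just above the upper end of the interval, 30.8%. In sham they had a peak at 5 of 10 (like length 5.47). Keratin-associated protein genes, a family of short clustered genes, had an SCI peak at 8 of 56 (6.32) and a sham peak at 20 of 56 (13.8). Neighbours can share a peak, as Krtap4-2 and Krtap4-7 did in sham, so some peaks count for more than 1 of these genes. Within the family, 2 had a peak in SCI alone (3.43), Krtap9-3 and Krtap20-2, and 14 in sham alone (10.9).

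Markers of cells that a spinal cord digest can hold had an SCI peak at 12 of 24 genes (like length 11.7) and a sham peak at 18 of 24 (17.2). A peak in SCI alone was found at 1 marker (like length 1.46), Cldn5 of endothelial cells, at the lowest score, and a peak in sham alone at 7 (6.94). The other endothelial markers were Cdh5, with a peak in sham alone, and Pecam1, with peaks in both. Peak lists hold no RNA, so whether any cell in these pools expressed a keratin cannot be read from them.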

How the data were processed

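STAT3 ChIP-seq of pooled dissociated spinal cord cells was used as 2 deposited peak lists, 1 for SCI and 1 for sham, each matched to its sample by title. The submitters' processing notes name Bowtie2 and mm10 for the alignment. Which peak caller, control and threshold were used is not stated in the sources used here. The deposited score is the authors' own value per peak, with a lowest value of 5, and its scale across lists is unknown, so it was used within a list. The deposited −log10 value stands where a q-value is usual and was not used further.

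Genes, their lengths and promoter sequences came from RefSeq GRCm38.p6, whose primary chromosomes have mm10 coordinates. The members and lists were chosen with earlier results of these data known. Members were linked into a locus where less than 500 kb apart. The count from like length adds, over a list, the share of other protein-coding genes with a peak in each member's length decile. Windows were laid end to end between the first and last peak of each chromosome, leaving out those that touch a keratin locus, and the percentile is the percent of windows with fewer peaks plus 0.5 times the percent with as many. Krt85 has no protein-coding entry in the gene table and was left out of the hair list. The text names every keratin with an SCI peak, those with 2 or more sham peaks or one in the top 10%, the longest and shortest, and Krt5, Krt8, Krt14, Krt17 and Krt18. The count of peak centres at genes was checked on simulated peaks of a single chromosome. For the sharing rule, each simulated peak was set against a list that held it, so false sharing could not show. The other counting rules were not checked in this way. Alternatives covered score, list length, gene window, overlap rule, locus bounds, window choice and sharing rule. Software was Python 3.11.15 with scipy 1.17.1, pandas 2.3.3, numpy 2.4.6 and, for the plots, matplotlib 3.10.9.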

Additional observations from a re-analysis of the deposited data

How the results depend on the processing

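Of 70 values recomputed under other settings, 69 stayed inside the interval of the value reported, which is a weak check because these intervals are wide. The exception was the type I locus in sham. With only the keratin genes and 5 kb on either side, merged, there were 7 peaks, 1 of them beside Krt42 and beyond the end of the locus, against 13.997 from the mean window, a ratio of 0.50, where the whole locus gave 0.95. The keratin genes with an SCI peak, relative to like length, ranged from 0.45 (inside the gene, 3 genes) to 0.97 (nearest gene only). For sham the range was 0.28 (within 1 kb of a gene end, or scores from the list's median upward) to 0.55 (within 10 kb, 20 genes against 36.3). Inside the gene only, sham gave 0.50, close to the SCI value under that rule. The type II locus in sham ranged from 0.22 (gene-rich windows) to 0.38 of the mean window. Type I and type II genes apart and windows of the same chromosome were chosen after seeing the data. No paired analysis was possible because each condition has 1 library and the labels give no replicate numbers. Some of the recomputed values could not move. Shortening the sham list leaves the SCI counts at keratin genes and loci as they were. Linking members under 200 kb gives the same locus on chromosome 15. The counts are small, so intervals are wide, and the depth of the libraries is unknown.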

Other observations

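Many scores in the lists give a whole number, to within 0.0001, when 1 is added and the sum is divided by 2 and squared. At keratin genes 4 of 11 SCI peaks (36.4%) and 5 of 13 sham peaks (38.5%) had such a score, beside 33.1% of the SCI list and 22.9% of the sham list. The peaks beside Krt18 in SCI and inside Krt33b in sham, both at 7.00, are among them. The sources used here do not say what this form stands for.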
